A study of Mus musculus with 2 samples.

Results

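Described here are the LHX6-bound intervals that lie inside a gene but far from where its transcription starts. They were the rows of the LHX6 library that held no CpG island, lay over 1000 bp from the start of every gene assigned to them, were placed in at least 1 gene, and had their nearest such host start over 100 kb away. Of 6566 LHX6 intervals, 603 met these conditions (9.18%, exact 95% interval 8.5 to 9.91), which was 42.9% of the 1404 intragenic intervals without a CpG island outside gene starts. Chromatin came from E11.5 maxillary arches, pooled from 47 embryos of the wild-type CD-1 mouse strain, and gave 1 LHX6 ChIP library (rabbit polyclonal antibody, 20 µg of chromatin) and 1 input library (no antibody). There were no replicates, so no difference below has a replicate check, and exact Clopper-Pearson or Poisson intervals cover counting error only. The pool mixes all cell types of the arch, so binding in fewer cells and weaker binding per cell cannot be told apart.

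LHX6 is a LIM homeodomain transcription factor of the first pharyngeal arch, where it is made in the mesenchyme that forms the upper jaw, palate and tooth supporting tissue. Homeodomains read short A and T rich words in DNA, of which the palindrome TAATTA is the best known. Introns of very long genes can hold enhancers, which may serve the host gene or a neighbouring gene.

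Sequence around the summit is shown first for 9 intervals, which were picked after their values were seen. They are 5 of the 6 highest and the highest of Erc2, Gpc6 and Lrba. Added to these is the highest interval with none of the cores and no input overlap. Each is 121 bases of the plus strand of NCBIM37 (mm9), 5′ to 3′, centred on the deposited summit, with the cores in capitals wherever they stand on either strand. The first core is TGATTG, which appears as CAATCA when it lies on the minus strand. The next is TGATTA, which then appears as TAATCA. The last is the palindrome TAATTA. The stretches are chr5:99940740-99940860 for A930011G23Rik, chr4:144589924-144590044 for Vps13d, chr3:51506948-51507068 for Maml3, chr17:45141860-45141980 for Supt3h and chr13:108550724-108550844 for Zswim6. They are chr14:28751204-28751324 for Erc2, chr14:117776868-117776988 for Gpc6, chr3:86505220-86505340 for Lrba and chr1:163954148-163954268 for the Dnm3 interval without a core. All 9 lie in introns.
A930011G23Rik: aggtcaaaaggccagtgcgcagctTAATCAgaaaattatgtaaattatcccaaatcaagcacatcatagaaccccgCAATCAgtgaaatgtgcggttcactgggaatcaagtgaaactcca
Vps13d: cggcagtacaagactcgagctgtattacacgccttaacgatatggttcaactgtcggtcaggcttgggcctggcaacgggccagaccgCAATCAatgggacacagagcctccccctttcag
Maml3: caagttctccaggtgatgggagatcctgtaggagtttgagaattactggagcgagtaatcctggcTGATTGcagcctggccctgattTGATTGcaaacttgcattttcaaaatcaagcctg
Supt3h: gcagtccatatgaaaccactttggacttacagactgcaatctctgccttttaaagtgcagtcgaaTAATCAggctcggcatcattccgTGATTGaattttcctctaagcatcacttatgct
Zswim6: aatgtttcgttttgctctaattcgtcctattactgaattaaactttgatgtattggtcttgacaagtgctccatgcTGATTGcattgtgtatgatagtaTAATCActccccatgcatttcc
Erc2: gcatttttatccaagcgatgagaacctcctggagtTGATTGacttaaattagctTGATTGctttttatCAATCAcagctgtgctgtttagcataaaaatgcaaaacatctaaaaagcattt
Gpc6: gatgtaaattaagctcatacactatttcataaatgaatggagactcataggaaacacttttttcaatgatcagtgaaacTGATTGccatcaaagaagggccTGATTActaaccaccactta
Lrba: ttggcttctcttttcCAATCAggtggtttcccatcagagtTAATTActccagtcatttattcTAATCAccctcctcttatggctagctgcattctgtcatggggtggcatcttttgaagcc
Dnm3 without a core: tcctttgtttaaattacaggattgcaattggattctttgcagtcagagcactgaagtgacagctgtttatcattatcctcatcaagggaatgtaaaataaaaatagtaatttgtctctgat
Erc2 held 3 TGATTG sites in these 121 bases, Maml3 held 2, and Lrba held 1 site of each core. Supt3h, Zswim6, Gpc6 and A930011G23Rik each held 1 TGATTG and 1 TGATTA. The Dnm3 interval, of height 55, held none of the 3 within 100 bp of its summit. Other stretches of 121 bases were read and are not shown. Among them, the highest interval of Slc25a21 held no core, and those of Astn2, Bcas3 and Fmn1 held 1 site each. The highest of Auts2 held 2 TGATTA sites, and that of Dnm3 held 1 TGATTA and 1 TAATTA.

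Height, the highest density of extended fragments in an interval, had a median of 24 in the 603 intervals over 100 kb inside genes (interquartile range 19 to 32, range 12 to 114). The medians of the other classes without CpG islands were 23 at 20 to 100 kb from the host start (475 intervals), 22 at 1 to 20 kb (326) and 23 between genes (1864), and that of all LHX6 intervals was 22. A height of 50 or more was reached by 42 of the 603 (6.97%, 5.07 to 9.3), against a background of 4.66% of all LHX6 intervals. The same share was 7.58% (5.36 to 10.3) at 20 to 100 kb, 3.68% (1.92 to 6.34) at 1 to 20 kb and 7.78% (6.6 to 9.09) between genes. Deep intragenic intervals were thus close to intergenic ones in height. The 1 to 20 kb class had the lowest share of tall intervals, from 12 of its 326. Its counting interval met those of the other intragenic classes but not that of the intergenic class. Median length was 774 bp over 100 kb inside genes, against 775, 806 and 777 bp in those 3 classes.

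The highest interval was in A930011G23Rik, at chr5:99940365-99941290, 221 kb from the host start in a 182 kb intron, with a height of 114. Next came Vps13d, a lipid transfer protein of mitochondrial upkeep (chr4:144589136-144590526, height 94), then Maml3, a Mastermind coactivator of Notch signalling (chr3:51506564-51507889, height 91), and Astn2, a protein of neuronal migration (chr4:65940896-65941925, height 91). Supt3h, a subunit of the SAGA transcription coactivator complex, followed with a height of 87 at chr17:45141203-45142165. Zswim6, a zinc finger gene whose human counterpart is mutated in a frontonasal malformation, had a height of 85 at chr13:108550315-108551022. Epha3, an Eph receptor, had 83, and Pde7b, a cAMP phosphodiesterase, had 81. The rest of the 15 highest were in Dclk1, Plcb1 and Pcdh15 (78 each), Ccdc46 (77), Erc2 (76), Gpc6 (72) and Ldlrad3 (71). The hosts at the top therefore spanned coactivators, receptors, signalling enzymes and structural proteins.

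Distance from the host start had a median of 226 kb (interquartile range 151 to 374), with 250 intervals at 100 to 200 kb, 219 at 200 to 400 kb and 134 beyond 400 kb. Median heights in those 3 bands were 24, 25 and 22, so height changed little with distance. The farthest interval was in Lrp1b, a very long lipoprotein receptor gene, 1831 kb from the start (chr2:40677745-40678434, height 38). The next 2 were in Dmd, the dystrophin gene, at 1680 kb (height 34) and 1462 kb (height 21). In all, 17 intervals lay over 1 Mb from the host start. Just inside the limit were Mnat1 (100320 bp, height 19) and Kif5c (100638 bp, height 33), and just outside it were 1190002A17Rik (99580 bp, height 39) and Itpk1 (99271 bp, height 35).

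By GENCODE M1, 570 summits (94.5%) fell in introns of protein-coding genes, 9 in coding exons, 11 in untranslated exons and 13 outside protein-coding genes. Among 564 placed in an intron of the named host, 42 (7.45%) were in the first intron. Their introns had a median length of 56.9 kb, and 189 (33.5%) were in introns longer than 100 kb. How much of the DNA that the rule allows is intron, first intron or long intron was not counted. These shares therefore have no background and describe position only. Of 589 intervals with a matched host, 574 had a deposited distance no longer than the GENCODE host, and the others were left out here. Those 574 summits sat a median of 67.2% of the way along the host. The middle of the stretch that the rule allows lay at a median of 62.3%. The rule also leaves out introns that end within 100 kb of the start. Intervals in coding exons included those in Ccdc46, Lrp1b, Lrba (height 21) and Ror2 (height 15), a WNT5A receptor. These hosts were chosen after their values were seen.

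Distance from the deposited start does not exclude a start of another transcript nearby. Only 252 of the 603 (41.8%, 37.8 to 45.8) lay over 100 kb from every protein-coding transcript start in GENCODE, and 16 (2.65%) lay within 1 kb of one. Those 16 include intervals in Lgr5, a receptor of WNT-amplifying R-spondins, Tcf4 and Tcf12, both E-proteins, and Fmn1, a formin (these 4 were picked after their values were seen). The Fmn1 interval, of height 36, was 0.453 kb from an internal start. The nearest start belonged to a gene other than the host in 136 of 589 intervals whose host was matched (23.1%, 19.7 to 26.7).

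The 603 intervals fell in 351 host genes. A single interval was held by 227 hosts, and 124 hosts (35.3%) held 2 or more, 56 of them at least 3. Successive intervals in a shared host were a median of 51.8 kb apart, and 39 of 252 gaps (15.5%) were under 10 kb. Intervals of 1 host are not independent samples of binding, and the host counts rest on gene length as well.

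Gpc6, a glypican, held 11 intervals at 315 to 1020 kb from its start. Their heights in order along the gene were 15, 26, 13, 32, 72, 22, 16, 20, 25, 34 and 23. They formed 2 groups, 7 between 315 and 644 kb and 4 between 988 and 1020 kb, and the tall one stood alone at 452 kb. Auts2, a chromatin-associated gene of neural development, also held 11, at 380 to 1015 kb. Its heights along the gene were 18, 41, 18, 26, 16, 33, 27, 19, 17, 38 and 19, with none at 50 or above. Dnm3, a dynamin of membrane scission, held 11 in a 496 kb gene, shorter than Gpc6 (1054 kb) and Auts2 (1106 kb). Its heights along the gene were 12, 51, 63, 30, 30, 18, 19, 55, 27, 25 and 18, so 3 reached 50.

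Bcas3, a cytoskeletal and autophagy protein, held 9 intervals at 137 to 344 kb, with heights along the gene of 13, 22, 42, 33, 52, 46, 28, 31 and 24. Of these, 6 lay between 260 and 314 kb, with heights of 28 to 52. Kcnma1, the BK potassium channel, held 7 of heights 18 to 48, all between 480 and 618 kb. GENCODE gives this gene a length of 505 kb, so the farther of these deposited distances exceed it. Frmd4a, a cell polarity scaffold, Lrba, a vesicle traffic protein, and Prkg1, a cGMP-dependent kinase, held 6 each, with heights of 23 to 50, 15 to 48 and 17 to 34. Vps13d held 5, 4 of them at 13 to 20 beside the one at 94. The tall intervals of Gpc6 and Vps13d thus stood alone among low ones, whereas Dnm3 had several tall ones.

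**Figure D1:**
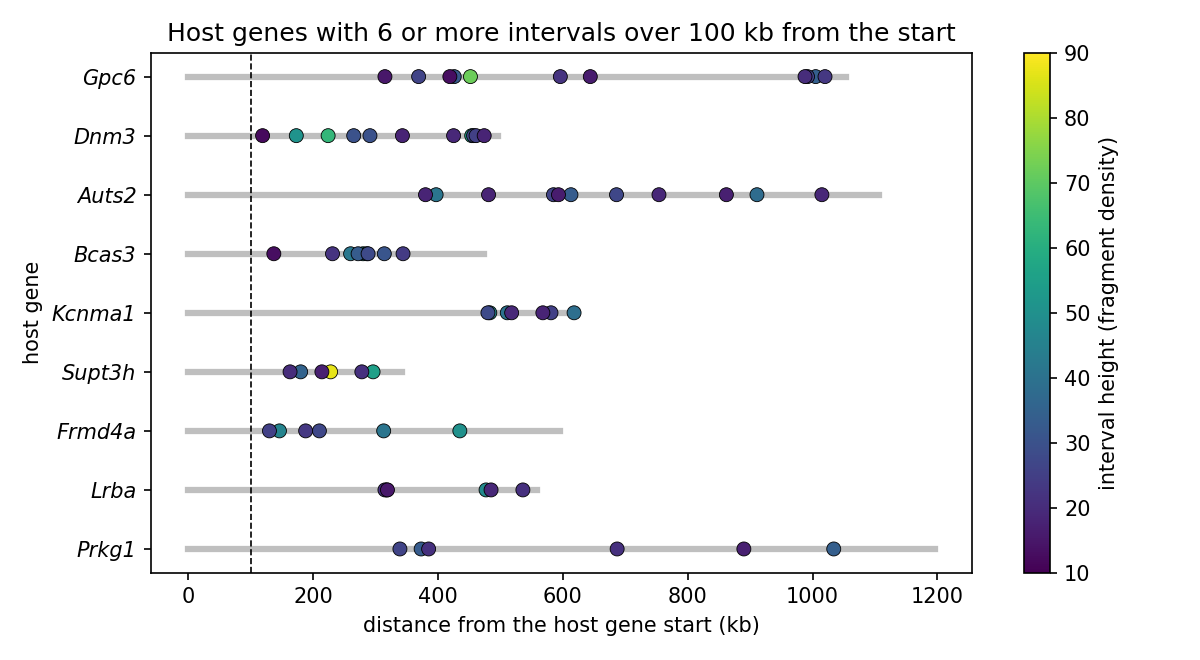
Position of each interval over 100 kb inside the hosts with most such intervals (horizontal axis, distance from the deposited host start in kb) with its height marked. The 11 intervals of Gpc6 split into a group at 315 to 644 kb and one at 988 to 1020 kb, while the 9 of Bcas3 lie within 137 to 344 kb.

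Across 2399 protein-coding genes over 100 kb long, 337 hosted such an interval, a background of 14%. That share was 4.29% of genes of 100 to 200 kb, 22% at 200 to 400 kb, 39.9% at 400 to 800 kb and 48.8% over 800 kb, an order that the rule builds in, since a longer gene offers more DNA beyond 100 kb. Per Mb of such DNA the same 4 length classes held 1.38, 1.91, 1.96 and 1.05 intervals, with no such order. Each functional list below is set beside both the background and its median gene length, since all 2399 genes had a median of 167 kb. The part of gene length in the list shares was not tested.

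Transcription factors and cofactors of mesenchyme and craniofacial development hosted an interval in 34 of 71 long members (47.9%, 35.9 to 60.1), with a median gene length of 234 kb. Their 60 intervals had a median height of 25. Maml3 had 91 and 36, side by side in 1 intron, and Npas3, a bHLH-PAS factor, had 24, 52, 65 and 43 along the gene. Heights of 59 were seen in Eya1, a cofactor and phosphatase of branchial and ear development, in Rora, a nuclear receptor, and in Runx1t1, a corepressor. Runx2, the master factor of bone formation, held heights of 14 and 53 in its own introns, 131 and 196 kb from its start. Among factors known in jaw and palate, Trps1 had 25, 16 and 43, Gli3, the hedgehog effector, had 37, and Tcf12 had 30 and 45. Runx2 and these jaw and palate factors were named after their values were seen, as were Ror2 and Lrba elsewhere in the text. The list was spread over many hosts rather than resting on a few, with at most 5 intervals in 1 gene, Rora.

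Signalling genes hosted an interval in 16 of 48 long members (33.3%, 20.4 to 48.4; median gene 284 kb). Their 32 intervals had a median height of 21.5. The highest were 78 in Plcb1, phospholipase C beta, 66 in Tgfbr3, the betaglycan coreceptor, and 64 in Pde4b, a cAMP phosphodiesterase. Tgfbr3 had a second interval of 23, and the other 3 of Plcb1 were 15, 23 and 14. The WNT5A receptor Ror2 had 33 and 15. A height of 50 or more was reached by 3 of the 32 (9.38%, 1.98 to 25), a share whose counting interval holds the 6.97% of all 603.

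Guidance genes hosted an interval in 15 of 36 (41.7%, 25.5 to 59.2; median gene 322 kb), and their 24 intervals had a median height of 27. Fstl4 and Fstl5 are counted here although they belong to none of the Eph, ephrin, semaphorin, plexin, netrin or Slit-Robo families. Epha3 had 16, 83, 38 and 18 along the gene. Plxna4, a plexin receptor for semaphorins, had 47, and Plxdc2 and Sema5a, a plexin-domain protein and a semaphorin, reached 44 each. Adhesion genes hosted one in 26 of 71 (36.6%, 25.5 to 48.9), also with a median height of 27, but with the longest genes of any list (median 579 kb). Pcdh15, a protocadherin, had 78, Magi2, a junction scaffold, 61, and Opcml, an immunoglobulin-type adhesion protein, 59. Extracellular matrix genes had the lower share of 11 of 56 (19.6%, 10.2 to 32.4; median gene 204 kb), and 11 of their 27 intervals were in Gpc6. The next highest after Gpc6 were 36 in Col23a1, a transmembrane collagen, and 33 in Ccbe1, a matrix protein of lymphatic growth.

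Regulators of small GTPases, the cytoskeleton and membrane traffic hosted an interval in 25 of 96 (26%, 17.6 to 36; median gene 282 kb), led by Tns3, a tensin (66), Arhgap24, a Rac GTPase activator (65), and Dnm3 (63). Chromatin and RNA-binding genes hosted one in 15 of 62 (24.2%, 14.2 to 36.7; median gene 175 kb), and Auts2 and Bcas3 supplied 20 of those 40 intervals. Bcas3 is counted on this list although its cytoskeletal role would place it elsewhere. Outside those hosts, Chd7, the remodeller mutated in human CHARGE syndrome, had 48 and Rbms3 43. Ion channel and receptor genes hosted one in 12 of 65 (18.5%, 9.92 to 30), though their genes were long (median 384 kb), and none of their 23 intervals reached 50. Their highest were 48 in Kcnma1 and 32 in Cacna2d3, a calcium channel subunit. Enzymes and very long genes of fragile sites hosted one in 24 of 62 (38.7%, 26.6 to 51.9; median gene 375 kb), led by Supt3h (87), which this list holds for its length although it is a coactivator subunit, and Pde7b (81). All 9 lists had a share above 14%, and all had a median gene length above 167 kb. The lists were chosen with earlier results of these data known, so a share above the background can come from that choice. How much of each share does was not tested.

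Some hosts border a developmental gene. Of 78 developmental genes listed with earlier results known, 29 (37.2%) had 1 or more of 61 intervals within 500 kb of their start inside another host, against a background of 8.2% of protein-coding genes. Gene length and spacing around these genes were not matched. Only 9 of the 29 were the nearest start to any of these intervals; Tbx2 and Tbx4, beside the 9 intervals of Bcas3, were nearest to none. All 6 intervals of Supt3h had Runx2 as the nearest protein-coding start, at 126 to 259 kb, with heights of 20, 35, 17, 87, 21 and 55 going away from Runx2. With the 2 in Runx2 itself, 8 intervals over 100 kb from a host start thus lay along this locus. Erc2, a presynaptic scaffold gene, held 3 intervals nearest to Wnt5a, a WNT ligand of facial outgrowth, at 69.5, 129 and 285 kb, with heights of 22, 19 and 19. The tall Erc2 interval of height 76 was nearest to an Erc2 start instead, 62 kb away.

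Uvrag, an autophagy gene, held 3 nearest to Wnt11, another WNT ligand, at 72, 90 and 145 kb with heights of 25, 22 and 38. Gmds, a fucose synthesis enzyme, held 2 nearest to Foxc1, a forkhead factor of the cranial mesenchyme, at 53.2 and 70.6 kb with heights of 22 and 27. Lrba held 6 within 213 kb of Mab21l2, a gene of eye and face development nested in it. They lay at 4.33, 6, 8.3, 153, 162 and 213 kb, and the highest, of height 48, was the one at 153 kb. Mab21l2 was the nearest start to 2 of the 6. The 4 intervals of Slc25a21, a mitochondrial carrier, lay 156 to 381 kb from Pax9, a factor of tooth and palate formation, with heights of 30, 24, 30 and 33, but all had an Slc25a21 transcript start nearer. The single Fmn1 interval lay 318 kb from Grem1, a BMP antagonist. Position alone was measured here, and which gene an interval acts on was not tested; these neighbours and hosts were named after their values were seen.

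Zones were compared per length of DNA, with every summit without a CpG island placed by GENCODE gene coordinates. This gave 718 summits over 100 kb inside genes where the deposited distances gave 603. All DNA of a zone was counted, CpG islands and unsequenced gaps included, which lowers the density of zones that hold more of either. The zones are therefore not of equal kind. There were 2.05 summits per Mb over 100 kb inside genes (1.9 to 2.2). The figure was 1.34 per Mb (1.22 to 1.46) at 20 to 100 kb, 1.24 (1.11 to 1.38) at 1 to 20 kb and 1.35 (1.3 to 1.41) outside genes. Within the 954 genes over 200 kb alone, the values were 2.12 per Mb over 100 kb (1.96 to 2.29), 1.6 at 20 to 100 kb (1.33 to 1.91) and 1.49 at 1 to 20 kb (0.983 to 2.17). The first 1 kb of genes had more, at 4 per Mb (3.2 to 4.94) over all genes and 6.3 (2.31 to 13.7) in the long ones. Beyond that first 1 kb, the deep zone had the highest density in both sets. In the long genes its counting interval did not meet that of the 20 to 100 kb zone but did meet that of the 1 to 20 kb zone. Neighbouring summits of 1 gene were counted as independent in these intervals.

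**Figure D2:**
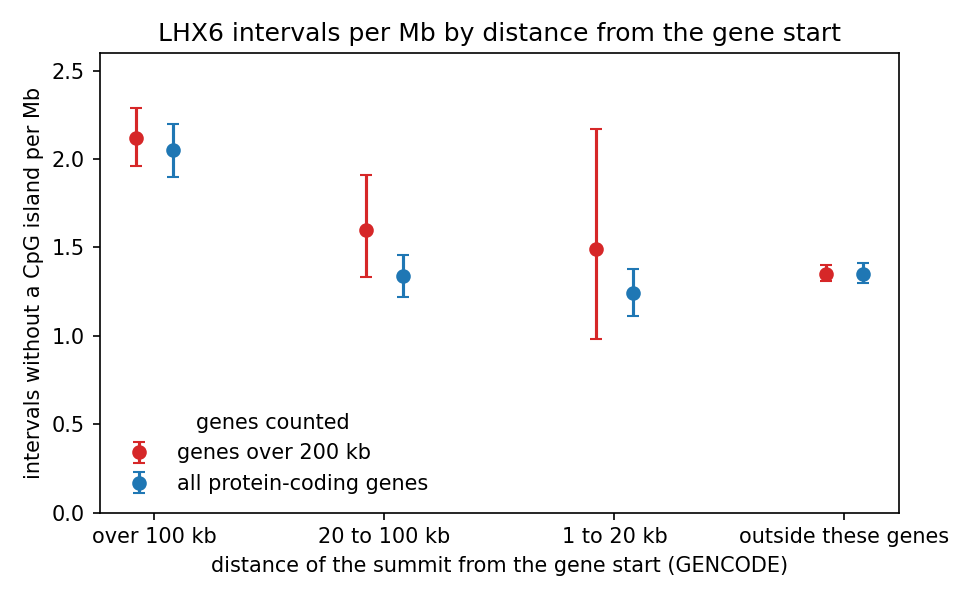
Intervals without a CpG island per Mb of genome, by distance from the gene start, for genes over 200 kb (red) and all protein-coding genes (blue), with exact Poisson 95% intervals as bars. The first 1 kb is not drawn. Over all genes, the zone over 100 kb inside genes stands at 2.05 per Mb, against 1.34 at 20 to 100 kb and 1.35 outside genes.

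Sequence at the summits was then read in 200 bp windows, both strands counted and overlapping sites counted separately. TGATTG (the G core) was present in 254 of 603 intervals (42.1%, 38.1 to 46.2), against a background of 32.3% of all LHX6 intervals and 6.63% of windows 2 kb to the sides of the same 603. TGATTA (the A core) was present in 275 (45.6%, 41.6 to 49.7), against a background of 22.9% and 10.1% in the flanks. TAATTA (the palindromic core) was present in 114 (18.9%, 15.9 to 22.3), against a background of 8.71% and 7.3% in the flanks. At least 1 of the 3 was present in 460 (76.3%, 72.7 to 79.6), against a background of 50.1% and 20.7% in the flanks. The A and G cores were thus close in deep intragenic intervals, with counting intervals that overlap, as they were at 20 to 100 kb (39.6% and 38.5%). Over all LHX6 intervals, which had a higher median GC (52% against 44%), the G core was the more frequent. Below 40% GC, deep and all intervals had the G core in 45.6% and 43.2% and the A core in 55.1% and 51.4%. At 40 to 50% GC these were 43% and 43.5%, and 45% and 37.1%. At 50% or more they were 34.3% and 23.5%, and 34.3% and 8.67%. The part of GC was not tested.

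Of the 2 E-box words, the sites of bHLH factors, CATCTG (E-box 1) was in 191 intervals (31.7%; background 21.7%, flanks 15.1%) and CAGCTG (E-box 2) in 120 (19.9%; background 16.2%, flanks 8.37%). The octamer CTGATTGC, which contains TGATTG, was in 50 intervals (8.29%; background 5.19%), against 0.249% of flanks. TGACAG, the word of TALE homeodomains such as MEIS, was in 108 (17.9%; background 13.5%, flanks 13.2%), 1.36 times its share in the flanks, where the interval of 14.9 to 21.2% at summits just met that of 11.3 to 15.2% in flanks.

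**Figure D3:**
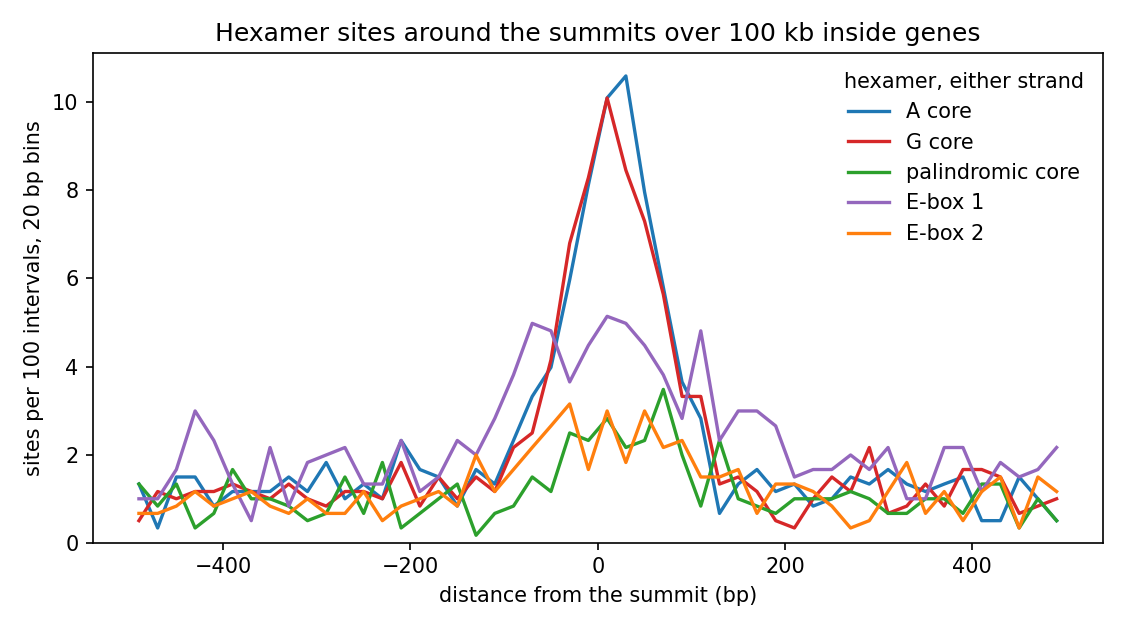
Sites of each word per 100 intervals over 100 kb inside genes in 20 bp steps of distance from the summit (horizontal axis, bp). The G and A cores are densest beside the summit, on its higher-coordinate side, and both thin out towards the flanks. The G core reaches 10.1 sites per 100 intervals at 0 to 20 bp and the A core 10.6 at 20 to 40 bp.

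The site nearest to the summit in each window was measured next, with the same distance from the centre of the flanking windows as a reference. Its median distance was 27.5 bp for TGATTG at summits, against 35.5 bp in the 80 flanking windows with a site. For TGATTA it was 26 bp, against 42 bp in 122 flanking windows. TAATTA was at 39.5 bp, against 44.5 bp in flanks, CATCTG at 42 bp, against 41.5 bp, and CAGCTG at 42.5 bp, against 50 bp. TGATTA thus had the largest shift towards the summit, TGATTG and CAGCTG each had a smaller one, and CATCTG was no nearer to it than in flanks. Summits sit on a coarse grid, 80.6% at multiples of 32 bp, which limits these distances. Sites were also more frequent on the higher-coordinate side of the summit. At 20 to 40 bp, TGATTG had 8.46 sites per 100 intervals on that side and 6.8 on the other, and TGATTA had 10.6 and 5.97. The cause of this offset was not tested. The bases next to the cores were also compared with those in the flanks. C stood before 36.9% (31.9 to 42.2) of 352 TGATTG sites near summits, against 23.5% (15.7 to 33) of 102 in flanks. C stood after 34.7% (29.7 to 39.9), against 20.6% (13.2 to 29.7). These TGATTG counting intervals overlap or touch. C stood before 39.7% (34.7 to 44.9) of 370 TGATTA sites, against 23.4% (16.6 to 31.3) of 137 in flanks. A stood before 14.1% (10.7 to 18), against 31.4% (23.7 to 39.9), and T after 14.9% (11.4 to 18.9), against 40.1% (31.9 to 48.9). These TGATTA counting intervals did not meet. Sites of a shared window were counted as independent, although 22 TGATTG sites lay in the Usp29 interval and 10 in the Dok5 interval. C was thus more frequent before TGATTA near the summit than 2 kb away, while for TGATTG counting error does not separate the shares.

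The G core was shared evenly by the classes without CpG islands, being present in 42.1% of the deep intragenic intervals, 38.5% at 20 to 100 kb, 36.2% at 1 to 20 kb and 41.9% between genes. The A core was less even, at 45.6%, 39.6%, 28.2% and 36.9% in the same order. TAATTA was at 18.9%, 14.5%, 7.98% and 13.5%. Base composition moved with these classes, with a median GC of 44%, 47%, 47.5% and 44.5% in the windows and 52% in all LHX6 intervals. Among windows of 40 to 50% GC, the A core was in 45% of deep intragenic intervals, 44.1% at 20 to 100 kb, 34.9% at 1 to 20 kb and 36.7% between genes. In the same windows TAATTA was in 18.2%, 13.5%, 7.89% and 13.5%, and the G core in 43%, 40.4%, 42.8% and 45.7%. Below 40% GC the A core was in 55.1% (46.7 to 63.3) of the deep class and 56.8% (44.7 to 68.2) at 20 to 100 kb. At 50% GC or more it was in 34.3% (25.3 to 44.2) and 24.4% (17.9 to 31.9). The deep class was thus within 2 percentage points of the 20 to 100 kb class in both lower GC bands and above it in the highest, with counting intervals that overlap throughout. The part of GC in the class differences was not tested.

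**Figure D4:**
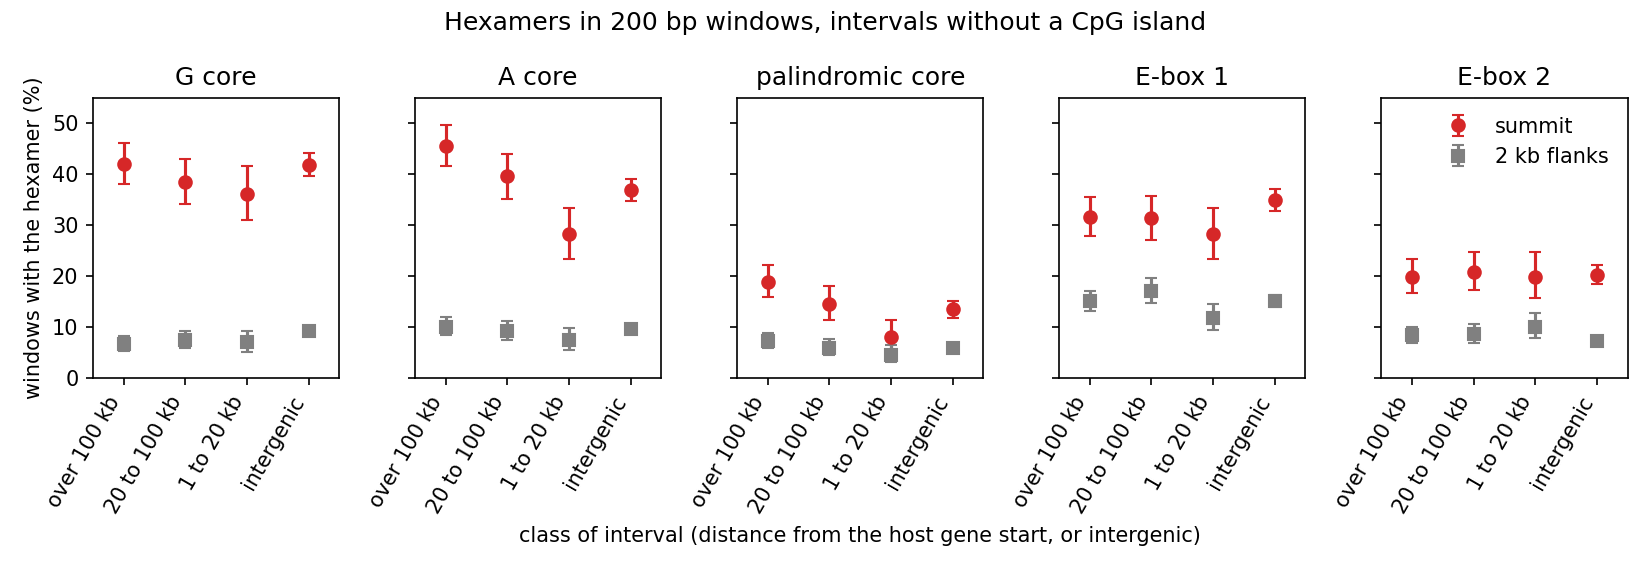
Share of intervals with each word within 100 bp of the summit (vertical axis, percent) by class of interval, with exact 95% intervals, and the share in windows 2 kb away. The A core is at 45.6% in intervals over 100 kb inside genes and 28.2% at 1 to 20 kb, while the G core stays between 36.2 and 42.1%.

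Taller intervals more often held the G and A cores. TGATTG was in 29% of the 169 intervals of height below 20, 38.3% of the 243 at 20 to 29, 53.7% of the 149 at 30 to 49 and 76.2% of the 42 at 50 or more. Its counting intervals in the lowest and highest of these classes, 22.3 to 36.5 and 60.5 to 87.9, did not meet. TGATTA was in 40.2% (32.8 to 48), 41.2%, 54.4% and 61.9% (45.6 to 76.4) in the same order. For TGATTA the lowest and highest classes had counting intervals that overlap. TAATTA was in 15.4% (10.3 to 21.7), 20.2%, 19.5% and 23.8% (12.1 to 39.5), values that counting error does not separate. At least 1 core was in 66.9%, 73.7%, 85.9% and 95.2%. CATCTG had no such order, at 27.2%, 32.1%, 36.2% and 31%, and CAGCTG was at 17.2%, 20.6%, 21.5% and 21.4%. Of the 5 words, TGATTG thus had the widest range over the height classes.

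Read the other way, the 143 intervals with no core site had a median height of 21, and 1.4% of them reached 50. The 225 with 1 site had 22 and 4.89%, the 133 with 2 sites had 27 and 9.77%, and the 102 with 3 or more had 31.5 and 15.7%. Median GC was 46% with no site, 44% with 1, 43.5% with 2 and 41.8% with 3 or more, so composition moved with the number of sites and its part was not tested. TGATTG and TGATTA were both present in 109 intervals (18.1%), with a median height of 31, and all 3 cores in 22. Their single shares were 42.1% and 45.6%. Whether the 2 cores meet more often than those shares give was not tested, and joint counts were not made over all LHX6 intervals. An E-box of either kind was in 193 of the 460 intervals with a core (42%) and in 80 of the 143 without one (55.9%), and 63 intervals (10.4%) had neither.

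**Figure D5:**
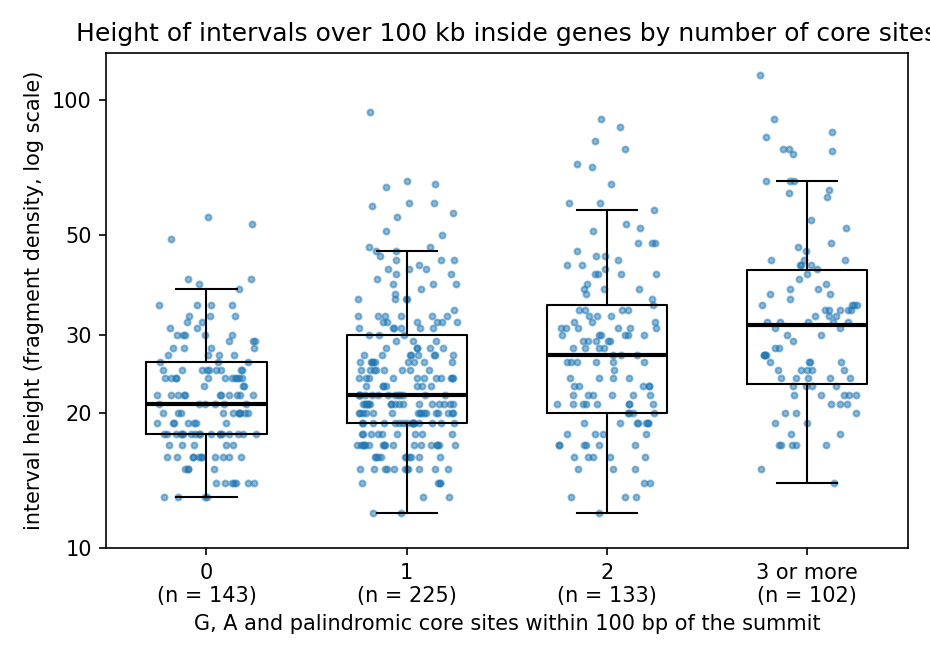
Height of each interval over 100 kb inside genes by its number of core sites within 100 bp of the summit, with medians. Boxes give the quartiles and the bar in each the median, which is 21 with no site and 31.5 with 3 or more.

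Along the distance bands the G core changed little. TGATTG was in 41.6%, 41.6% and 44% of intervals at 100 to 200, 200 to 400 and over 400 kb, and TGATTA in 41.2%, 49.3% and 47.8%. CAGCTG was in 24.8% (19.6 to 30.6), 17.4% (12.6 to 23) and 14.9% (9.36 to 22.1), lower farther out but with counting intervals that overlap.

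A single one of the 603 coincided with an input interval. It lay in Camk1d, a calmodulin-dependent kinase gene, at chr2:5299931-5300684, with a height of 56 in the LHX6 library and 23 in the input, a ratio of 2.43. The input interval had the same boundaries. No source used here says if the libraries were brought to a common scale, and a depth difference can be part of that ratio. The input had 6 intervals in all, and the other 5 did not overlap these 603.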

How the data were processed

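The deposited table gave, for intervals of both libraries, a signal: the highest and the mean fragment density, as the authors' values in 32 bp bins. Alignment used BWA on mm9, and tags were lengthened to 150 bp, per the labels' protocols. The submitters' processing notes also name MACS. How intervals were called, and how many reads were sequenced, is not stated in the sources used here, so depth is unknown. Mean density times bins was whole within 0.02 in 100% of 6572 intervals.

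Intervals were placed on NCBIM37 with GENCODE M1. Of 525 with a uniquely named host, 88.8% of deposited distances lay within 200 bp of one to a GENCODE transcript start. Shares have exact 95% intervals; there is no test, with 1 library per group. The 603 intervals, the 9 gene lists and the words were chosen with earlier results of these data known. Named hosts were those of the 15 highest intervals, up to 10 with 3 or more, the 3 highest per list, the 3 farthest, those nearest the 100 kb limit and any overlapping input; others are marked. Word counting was tested on simulated data. Tools were Python 3.11.15, pandas 2.3.3, scipy 1.17.1 and pysam 0.24.0. In all, 68 alternatives were computed.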

Additional observations from a re-analysis of the deposited data

How the results depend on the processing

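Of 68 alternatives, 44 left the value within its counting interval, its spread or 1.5 times the count, and 24 moved it. Several outcomes were set by the choice itself, so this tally is no measure of robustness. Leaving out the input overlap removes 1 of 603 intervals. A wider window or a lower height limit can only raise a share, and a narrower window can only lower it. The number of intervals was 353 with a limit of 200 kb and, among the same 1404, 271 when GENCODE transcript starts of protein-coding genes replaced deposited ones, against 603. With 1 interval per host, the highest, median height was 26 and median mean density 11. A height of 30 rather than 50 was reached by 31.7%. Reading the middle of the interval in place of the summit gave 35.5% for TGATTG, 39.5% for TGATTA and 68.3% for any core. In 100 bp windows TGATTG was at 31.7%, TGATTA 33.8%, TAATTA 11.3%, CATCTG 17.4%, CAGCTG 11.1% and any core 61.9%. In 400 bp windows they were at 49.6%, 53.1%, 25.4%, 47.4%, 29% and 83.3% in that order. Among the 313 intervals at or above the median height, TGATTG was at 50.5%, TGATTA at 51.4% and any core at 81.8%. Beyond 200 kb CAGCTG was at 16.4%. No paired analysis was possible because each group has 1 library. Depth, the scaling between libraries and the calling threshold are unknown, so height cannot be turned into occupancy, and absence of an interval is no measure of absent binding.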
